A study of Callithrix jacchus with 54 samples.

Results

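Keratins are the intermediate filament proteins of epithelial cells, and 42 of the 14812 genes in the deposited expression table are described here across 27 conditions of common marmoset (Callithrix jacchus) embryonic stem cells (cjESCs) and the germ cells induced from them. The 42 are the rows whose marmoset symbol is KRT followed by a number and at most 1 letter. Of these, 13 passed the filter used for testing, a log2(TPM + 1) of at least 1.5 in at least 1 of the 54 libraries: KRT10, KRT15, KRT16, KRT17, KRT18 and KRT19 of type I, and KRT6A, KRT8, KRT72, KRT74, KRT78, KRT79 and KRT80 of type II. TPM is a transcript's share of all transcripts in a library on a fixed total, a level that is corrected for transcript length, so levels of different keratins can be set side by side within a library. Of the 13, KRT16, KRT74, KRT78 and KRT79 reached the filter in 3 libraries each and KRT6A in 4, so that a difference was built into their inclusion, and their values are given as a description with no test. The other 8 reached it in 10 or more libraries. KRT17 lies at this limit with 10, among them libraries of conditions in which it was then found higher. A part of its differences was thus built in too, and its tests carry that limit. All 42 gene IDs matched a keratin locus of the RefSeq gene table, where 3 of them (KRT19, KRT14 and KRT34) carry a locus number in place of the symbol.

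All cells came from the line CMES40 with the reporters BLIMP1-tdTomato and NANOS3-eGFP, and each condition had 2 replicate libraries. A derivative that also carries rtTA with tetO-BLIMP1, SOX17-GR and DD-TFAP2C (the TG+ line) was kept in DK20FA medium and placed for 12, 24, 48 or 96 h in BLSE (BMP4, LIF, SCF and EGF), in BLSE with SOX17 switched on by dexamethasone (SOX17 + BLSE), or in the same without BMP4 (SOX17 + LSE). Cells with the reporters alone were kept in PESFA medium, pre-treated with IM12 and activin A (Pre), and placed for 12, 24, 48 or 96 h in BLSE with the WNT inhibitor IWR1 (BLSE + IWR1), or with IWR1 and the retinoic acid receptor inverse agonist BMS493 (BLSE + IWR1 + BMS493). Cells of BLSE + IWR1 were also taken at day 6, and at days 20, 40 and 70 after day-6 cells had been aggregated with mouse fetal ovarian somatic cells (xenogeneic reconstituted ovaries, xrOvaries). TRA-1-60-positive cells were sorted from the cjESCs and Pre, all cells were taken at 12 to 48 h and in BLSE at 96 h, and tdTomato-positive cells in every other condition. Sorting therefore changed together with time and induction between the cjESCs or Pre and all cells of 12 to 48 h. It changed again between 48 and 96 h in every arm but BLSE. Each comparison of induced cells with cjESCs or Pre holds this change of sorting. Medium cannot be told apart from line in the cjESCs. SOX17 cannot be told apart at any time from the dexamethasone that switched it on, which BLSE alone did not need. All results rest on derivatives of 1 cell line. The study's methods call the replicates biological duplicates, and p-values measure the spread between such pairs of libraries. The SOX17 + LSE cells at 96 h are labelled as differentiated cells rather than germ cells.

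A keratin filament is built from pairs of a type I (acidic) and a type II (basic) keratin. KRT8 and KRT18 form the pair of simple epithelia and of early embryonic cells, and KRT19 is a further type I keratin of simple epithelia that can pair with KRT8. Other keratins belong to stratified epithelia (KRT5 and KRT14 in the basal layer, KRT1 and KRT10 above it), to activated epidermis (KRT6A, KRT16 and KRT17) or to the hair follicle (KRT71 to KRT74 with KRT25, KRT27 and KRT28 in the inner root sheath). In the RefSeq table, which is of another assembly than the files, 20 of the 21 type I members lie on 1 chromosome together with KRT222, and KRT18 lies beside KRT8 at the end of the type II cluster on another, with 0 protein-coding genes between the pair.

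The labelled cell types were checked against marker lists. The 4 pluripotency genes POU5F1, NANOG, SOX2 and PRDM14 summed to between 3712 and 4668 TPM in the cjESCs. The 6 germ cell genes SOX17, PRDM1, TFAP2C, NANOS3, DDX4 and DAZL summed to between 121 and 235 TPM in cjESCs and to between 1090 and 2278 TPM in the tdTomato-positive cells of BLSE + IWR1 at 96 h, at day 6 and in xrOvaries. DDX4 and DAZL were both listed at 0 at day 6, and all 6 genes reached 1 TPM in both libraries at day 70 alone among the xrOvary ages. Of the 4 stratified epithelium genes TP63, KRT5, KRT14 and KRT15, the sum was at most 7.31 TPM in any library, and KRT5 never exceeded 0.30 TPM.

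Most keratin transcripts were KRT8, KRT18 and KRT19. These 3 genes made up between 90.3% and 99.7% of the summed TPM of the members, or between 78.7% and 99.1% with KRT7 added, a keratin listed under a locus number and described further on. The summed TPM of the members ranged from 198 TPM in an xrOvary library of day 70 to 11605 TPM in a BLSE library of 24 h. The highest level of a single member was 5665 TPM for KRT18, followed by 3584 TPM for KRT8, 3032 TPM for KRT19 and 206 TPM for KRT72. None of the other 9 members that passed the filter exceeded 39.3 TPM in any library. Of the 29 members that failed it, 5 (KRT26, KRT27, KRT34, KRT35 and KRT39) were listed at 0 in all 54 libraries, 21 had a highest value under 1 TPM, and KRT14, KRT222 and KRT24 reached 1.77, 1.66 and 1.65 TPM.

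In the 2 cjESC media, the simple-epithelial keratins stood at different levels. KRT18 was at 4913 and 4769.7 TPM in DK20FA and at 2609 and 1986 TPM in PESFA. KRT8 was at 2763 and 2939.7 TPM in DK20FA and at 1368 and 1149 TPM in PESFA, and KRT19 fell from 1671 and 2163 TPM to 632 and 568 TPM. The libraries of the media did not overlap for any of the 3 genes, which for 2 against 2 libraries has a probability of 0.333 per gene without a difference. The share of all genes without such overlap was not counted, so this is a description. On the log2(TPM + 1) scale, the differences of PESFA from DK20FA were -1.18 ± 0.14 (SE) for KRT8, -1.09 ± 0.14 for KRT18 and -1.67 ± 0.20 for KRT19, with adjusted p of 6.78e-08, 2.11e-07 and 4.32e-08 (limma, Benjamini-Hochberg over 11197 genes). KRT72, at 0.44 and 1.70 TPM in DK20FA and 4.40 and 4.54 TPM in PESFA, was higher by 1.47 ± 0.39 (adjusted p = 0.00446), but that call was lost without DK20FA replicate 1 (adjusted p = 0.136) or either PESFA library. Of the 8 members at the filter in 10 or more libraries, 4 were called (adjusted p under 0.01), where 16.8% of all genes tested were called. KRT74 was listed at 0 in both PESFA libraries. A list of fibroblast, feeder and gonadal somatic genes, 10 of 12 measured, summed to between 232 and 277 TPM in DK20FA and to between 1732 and 2975 TPM in PESFA with none at 0 in both libraries of a medium; its part in these differences was not tested. Pre-treatment of the PESFA cells moved none of the same 8 members past the threshold in limma, where 0.304% of all genes passed. Of the 8, 0 had an unadjusted p under 0.05. The 95% interval of the pre-treatment difference ran from -0.20 to 0.39 for KRT8 and from -0.32 to 0.48 for KRT19.

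**Figure D1:**
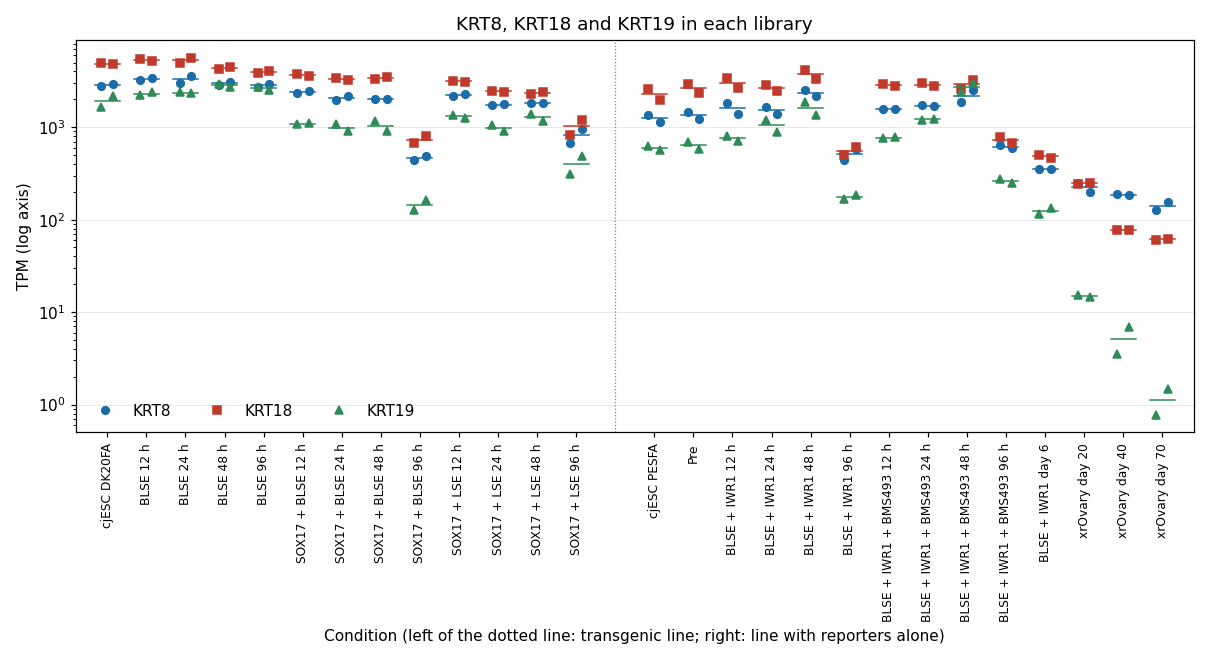
TPM of KRT8 (circles), KRT18 (squares) and KRT19 (triangles) in each of the 2 libraries of 27 conditions, on a log axis, with a short line at each mean. The 3 genes lie between 568 and 5665 TPM in all conditions up to 48 h, all 3 are lower in tdTomato-positive cells of 96 h, and KRT19 descends to between 0.78 and 1.46 TPM in xrOvaries of day 70.

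In BLSE without SOX17, KRT8, KRT18 and KRT19 stayed near their cjESC levels to 96 h. At 96 h, when all cells were taken, KRT8 was at 2745 and 2934 TPM, KRT18 at 3860 and 4052 TPM and KRT19 at 2743 and 2541 TPM. Against DK20FA cjESCs, the 95% interval of the log2 difference at 96 h ran from -0.58 to -0.01 for KRT18 and from 0.07 to 0.88 for KRT19, with neither past the threshold. What rose by 96 h were keratins of low level. KRT17, a type I keratin of activated epidermis and skin appendages, was listed at 0.00 and 0.23 TPM in DK20FA cjESCs and at 16.5 and 39.3 TPM in BLSE at 96 h (log2 difference 4.58 ± 0.40, adjusted p = 9.17e-12). KRT80, a type II keratin found in many epithelia, went from 2.38 and 0.77 TPM to 21.8 and 35.5 TPM (3.56 ± 0.41, adjusted p = 5.45e-09). KRT16, which accompanies KRT6A and KRT17 in activated epidermis, was listed at 0 in both cjESC libraries and at 3.77 and 5.68 TPM in BLSE at 96 h, and KRT79 was listed at 0 in both and then at 3.90 and 5.83 TPM. KRT78, another type II keratin, was listed at 0 in both and then at 1.51 and 3.07 TPM. KRT6A was at 0.75 and 1.29 TPM at 24 h and at 0.00 and 0.31 TPM at 96 h. KRT72 also rose, to 41.2 and 87.1 TPM.

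Of the 8 members at the filter in 10 or more libraries, 3 passed the threshold at 96 h in BLSE, all higher (KRT17, KRT72 and KRT80). Of all genes, 29.5% were called in either direction and 12.4% as higher. KRT16, KRT78 and KRT79, at the filter in few libraries, are not counted. KRT17 is counted, although both BLSE libraries of 96 h are among the 10 in which it reached the filter. At 48 h, 19.8% of all genes were called in either direction and 9.75% as higher. With KRT74 and KRT78 left out in the same way, 2 of the 8 had a call, both higher, that of KRT72 and that of KRT80. That of KRT80 failed without either BLSE library or DK20FA cjESC replicate 2 (adjusted p = 0.079).

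SOX17 was accompanied by a lower level of KRT19 in BLSE at 12 and 48 h. At 12 h, KRT19 was at 2212 and 2407 TPM in BLSE and at 1071 and 1111 TPM in SOX17 + BLSE. The log2 difference was -1.08 ± 0.20 (adjusted p = 4.81e-04), and KRT19 was the 1 member called, where 2.4% of all genes were called. The call failed without BLSE replicate 2 (adjusted p = 0.0185) or SOX17 + BLSE replicate 1 (adjusted p = 0.0123). At 48 h the difference of KRT19 was -1.46 ± 0.20 (adjusted p = 4.53e-07), from 2957 and 2739 TPM in BLSE to 1167 and 911 TPM with SOX17. KRT8 was also lower at 48 h, by a log2 difference of -0.55 ± 0.14, and KRT72 and KRT74 had differences of 1.91 and -1.20. KRT18 had log2 differences of -0.54 at 12 h and -0.36 at 48 h, and KRT8 of -0.46 at 12 h, none past the threshold. KRT72, whose SOX17 + BLSE values the selection used, and the members at the filter in few libraries were left out of the count. Of the other 7 members, 2 passed the threshold at 48 h, against 16.7% of all genes. The call of KRT8 failed without any 1 of the 4 libraries compared, with adjusted p of up to 0.0456. The change of the SOX17 difference between 12 and 48 h was called for 0 of the same 7 members in limma (2.46% of all genes). Of the 7, 1 member, KRT10, had an unadjusted p under 0.05.

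At 96 h the SOX17 + BLSE cells, sorted for tdTomato, had a fraction of the keratin transcripts of the BLSE cells, which were not sorted. KRT19 was at 2743 and 2541 TPM in BLSE and at 127 and 163 TPM in SOX17 + BLSE, a log2 difference of -4.19 ± 0.20 (adjusted p = 2.27e-19). KRT8 went from 2745 and 2934 TPM to 441 and 487 TPM (-2.61 ± 0.14, adjusted p = 1.56e-17), and KRT18 from 3860 and 4052 TPM to 667 and 799 TPM (-2.44 ± 0.14, adjusted p = 5.10e-17). None of the libraries of these groups overlapped for the 3 genes, again with a probability of 0.333 per gene without a difference. The share of all genes without overlap was not counted here either. KRT17 was at 5.19 and 4.44 TPM with SOX17 (-2.19 ± 0.40) and KRT10, a keratin of differentiating epidermis, at 8.37 and 9.03 TPM against 26.9 and 29.2 TPM in BLSE (-1.58 ± 0.24). Without KRT72 and the members at the filter in few libraries, 6 of 7 members passed the threshold, all lower (KRT8, KRT10, KRT15, KRT17, KRT18 and KRT19). Of all genes, 45.4% were called and 16.1% as lower. The call of KRT15 failed without BLSE replicate 2 or SOX17 + BLSE replicate 1. The remaining member of the 7, KRT80, had a log2 difference of -0.72 that did not pass. KRT72 had a difference of 0.75, given with no test.

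Sorting, SOX17 and dexamethasone cannot be told apart in the 96 h comparison. The 7 amnion-like genes TFAP2A, GATA2, GATA3, ISL1, GABRP, VTCN1 and HAND1 summed to between 1533 and 1623 TPM in BLSE at 96 h, with all 7 at 1 TPM or more, and to between 437 and 541 TPM in SOX17 + BLSE, where GABRP was listed at 0. The fibroblast, feeder and gonadal somatic list summed to between 1252 and 1936 TPM in BLSE and to between 68.1 and 73.9 TPM in SOX17 + BLSE, where COL3A1 was listed at 0. The part of these genes in the keratin differences was not tested. As these are bulk libraries, fewer cells of a type and less RNA per cell cannot be told apart.

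KRT72 is a type II keratin of the inner root sheath of the hair follicle. It was at 0.21 to 2.90 TPM in DK20FA cjESCs and in BLSE to 24 h, and then at 58.3 and 40.9 TPM in BLSE at 48 h. With SOX17 it reached 206 and 170 TPM at 48 h, the highest of all conditions, and 94.3 and 109 TPM in the sorted cells of 96 h. Without BMP4, in SOX17 + LSE, it was at 0.81 and 0.76 TPM at 12 h, 1.66 and 0.62 TPM at 24 h, 0.62 and 0.36 TPM at 48 h, and 2.48 and 9.57 TPM at 96 h. The SOX17 + BLSE libraries lay above the SOX17 + LSE libraries at each of the 4 times. The log2 difference with BMP4 was 0.59 at 12 h, 2.0 at 24 h, 6.98 at 48 h and 4.08 at 96 h. With a pseudocount of 0.1 in place of 1 it was 2.71 at 24 h and 8.34 at 48 h, since the SOX17 + LSE libraries lay near or under 1 TPM. KRT72 was taken into the selection for this pattern, so these values are given as a description with no test. The value at 96 h moved to 3.28 and 4.88 when either SOX17 + LSE library was left out.

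Against DK20FA cjESCs, KRT72 had log2 differences of 6.57 at 48 h and 5.70 at 96 h in SOX17 + BLSE, which use the same libraries and are given with no test. In BLSE without SOX17, it was higher than in cjESCs by 4.66 ± 0.39 at 48 h and 4.95 ± 0.39 at 96 h (adjusted p = 8.08e-12 and 5.58e-13). These calls in BLSE were kept without each library in turn. The other type II keratins of the inner root sheath did not reach such levels: KRT74 had a highest value of 2.43 TPM, KRT73 of 0.60 TPM and KRT71 of 0.34 TPM. Among their type I partners, KRT25 had a highest value of 0.41 TPM, KRT28 of 0.30 TPM, and KRT27 was listed at 0 throughout. KRT72 made up 6.93% and 6.81% of the members' TPM and 17.1% and 17.5% of the type II members' TPM in SOX17 + BLSE at 96 h, or 14.6% and 15.0% of the type II TPM with KRT7 added. In the RefSeq table, KRT72 lies between KRT73 and KRT74 in the type II cluster.

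**Figure D2:**
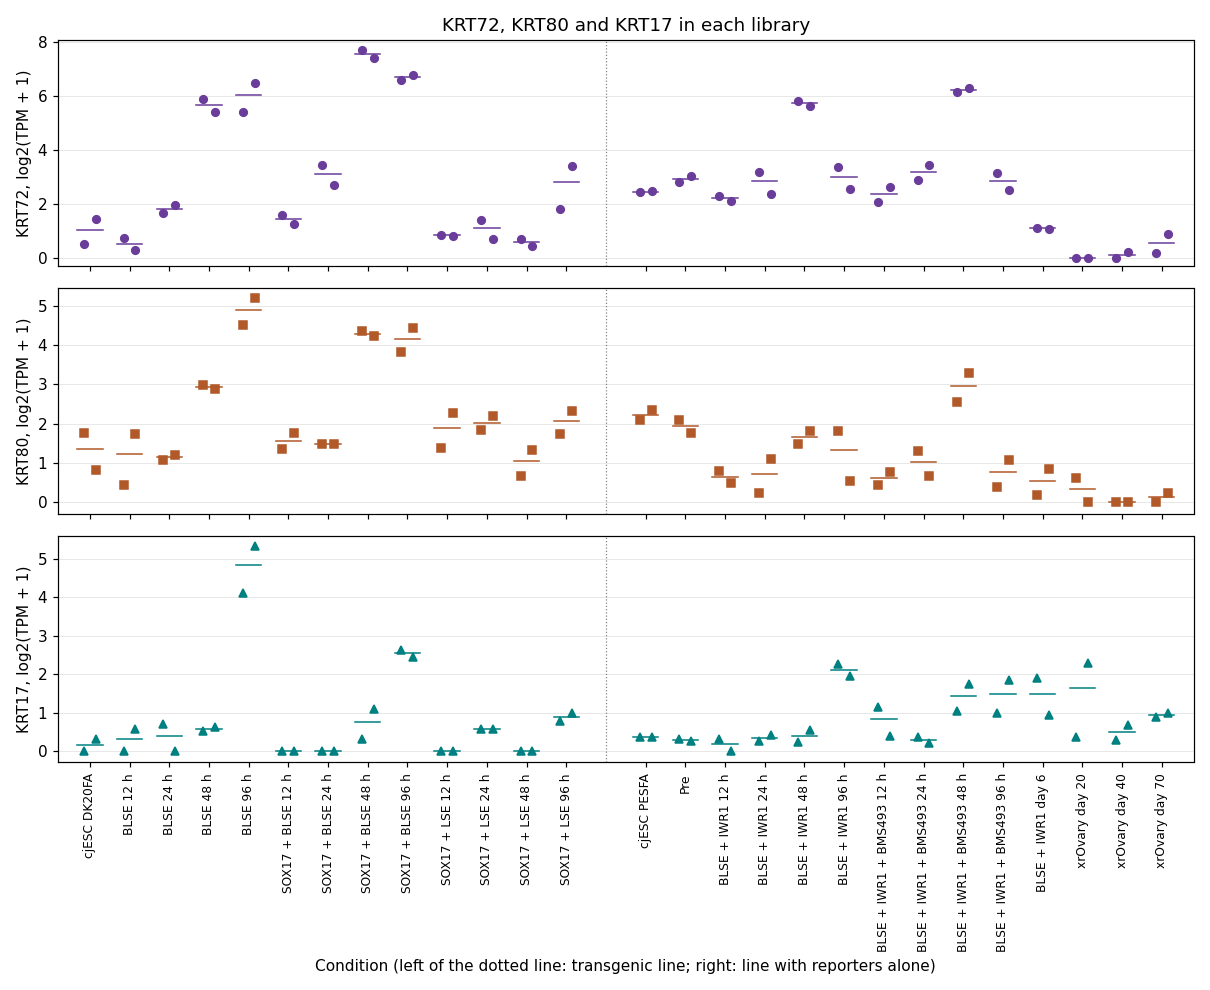
log2(TPM + 1) of KRT72 (top), KRT80 (middle) and KRT17 (bottom) in each of the 2 libraries of 27 conditions, with a short line at the mean TPM. KRT72 is highest in SOX17 + BLSE at 48 h (206 and 170 TPM), while KRT80 (21.8 and 35.5 TPM) and KRT17 (16.5 and 39.3 TPM) are highest in BLSE at 96 h.

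In SOX17 + BLSE against DK20FA cjESCs, the other members moved in both directions. At 48 h, 5 of the 7 members left without KRT72 and the members at the filter in few libraries passed the threshold. KRT80 was higher and KRT8, KRT10, KRT18 and KRT19 were lower. Of all genes, 26.3% were called, 15.8% as higher and 10.6% as lower. KRT80, at 19.3 and 17.7 TPM against 2.38 and 0.77 TPM in cjESCs (2.99 ± 0.41, adjusted p = 3.01e-07), kept its call without each library in turn, while those of KRT8, KRT10 and KRT18 failed without any 1 of the 4 libraries and that of KRT19 without DK20FA cjESC replicate 2 or SOX17 + BLSE replicate 2. At 96 h, 6 of the same 7 passed, where 43.2% of all genes were called, 25.6% as higher and 17.6% as lower. The same 4 genes were lower, with KRT19 by -3.72 ± 0.20 (adjusted p = 1.25e-17), KRT18 by -2.73 ± 0.14 (adjusted p = 5.56e-18), KRT8 by -2.62 ± 0.14 (adjusted p = 2.90e-17) and KRT10 by -1.38 ± 0.24 (adjusted p = 1.04e-05). KRT17, with 2.39 ± 0.40 (adjusted p = 5.72e-06), and KRT80, with 2.84 ± 0.41 (adjusted p = 3.81e-07), were higher.

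Beside KRT72, the comparison of SOX17 + BLSE with SOX17 + LSE separated a few other members. KRT80 was at 19.3 and 17.7 TPM with BMP4 and at 0.58 and 1.53 TPM without it at 48 h (log2 difference 3.28 ± 0.41, adjusted p = 2.41e-07). At 12 h it had been at 1.55 and 2.37 TPM with BMP4 and at 1.59 and 3.84 TPM without. The change of the BMP4 difference from 12 to 48 h was itself called for KRT80 (3.56 ± 0.58, adjusted p = 2.00e-04), where 1.26% of all genes were called. At 96 h KRT80 was at 13.2 and 20.5 TPM with BMP4 and 2.33 and 3.99 TPM without (adjusted p = 4.16e-04), although this call failed without SOX17 + BLSE replicate 2 (adjusted p = 0.0195) or SOX17 + LSE replicate 1 (adjusted p = 0.0185). KRT18 was higher by 0.53 on the log2 scale at 48 h (adjusted p = 0.00741), and fell short of the threshold without any 1 of the 4 libraries compared.

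At 96 h, KRT19 was lower with BMP4, at 127 and 163 TPM against 316 and 485 TPM in SOX17 + LSE (-1.44 ± 0.20, adjusted p = 2.34e-06), as was KRT8, at 441 and 487 TPM against 681 and 953 TPM (-0.80 ± 0.14, adjusted p = 1.47e-04). The call of KRT8 failed without SOX17 + LSE replicate 2 (adjusted p = 0.0318). KRT79 was listed at 0 in both SOX17 + LSE libraries and at 1.25 and 2.72 TPM with BMP4. KRT17 was at 5.19 and 4.44 TPM with BMP4 and at 0.72 and 0.97 TPM without (1.66 ± 0.40, adjusted p = 0.00429), a call that failed without any 1 of the 4 libraries. Without KRT72 and the members at the filter in few libraries, those that passed in limma were 0 of 7 at 12 h, 0 at 24 h, 2 at 48 h and 4 at 96 h. The shares of all genes called were 0.277%, 2.62%, 8.01% and 7.11%. Of the 7, 0 had an unadjusted p under 0.05 at 12 h and 1 at 24 h. The comparisons with and without BMP4 and with and without SOX17 share the SOX17 + BLSE libraries. The amnion-like list summed to between 1625 and 1693 TPM with BMP4 and to between 533 and 665 TPM without it at 48 h, with none of its genes at 0 in both libraries, and its part in these differences was not tested.

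**Figure D3:**
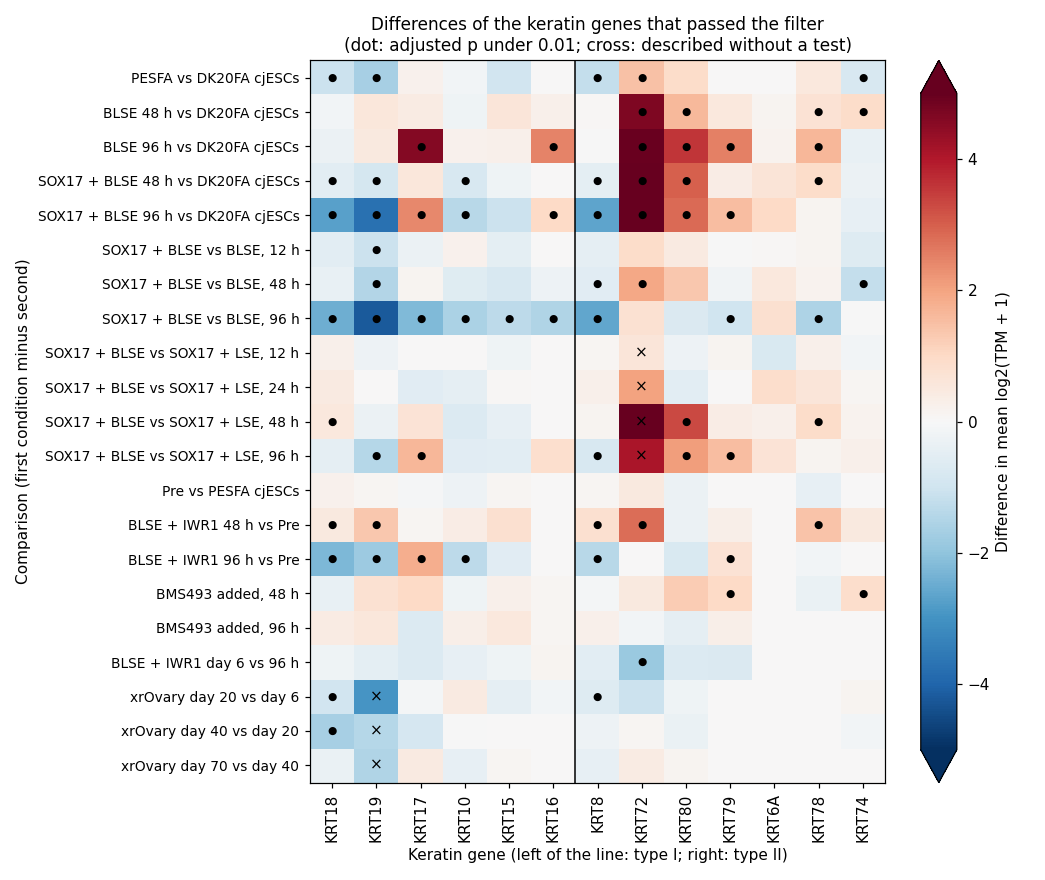
Difference in mean log2(TPM + 1) between the first and the second condition of 21 comparisons (vertical axis) for the 13 keratin genes that passed the filter (horizontal axis, type I left and type II right of the line), with the colour scale ending at 5 in either direction. Dots mark an adjusted p under 0.01, also for the 5 members at the filter in few libraries and for KRT72 against cjESCs or BLSE, which the text gives as a description, and crosses mark other values described without a test. KRT72 has its highest value, 6.98, in SOX17 + BLSE against SOX17 + LSE at 48 h. KRT8, KRT18 and KRT19 are blue for tdTomato-positive cells of 96 h against BLSE, cjESCs or Pre and for the steps to each xrOvary age.

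In BLSE + IWR1 the simple-epithelial keratins were higher at 48 h than before induction, and lower at 96 h. KRT19 was at 687 and 583 TPM in Pre, at 1886 and 1369.7 TPM at 48 h and at 167 and 187 TPM in tdTomato-positive cells at 96 h. The log2 difference from Pre was 1.34 ± 0.20 at 48 h (adjusted p = 1.89e-06) and -1.83 ± 0.20 at 96 h (adjusted p = 1.05e-09). KRT8 moved from 1476 and 1216 TPM in Pre to 2518 and 2188 TPM at 48 h and 443 and 587 TPM at 96 h, with differences of 0.81 ± 0.14 (adjusted p = 3.94e-05) and -1.39 ± 0.14 (adjusted p = 3.94e-10). KRT18 was at 2946 and 2331 TPM in Pre and at 503 and 608 TPM at 96 h, the largest of the 3 decreases (-2.24 ± 0.14, adjusted p = 1.19e-15). Its difference at 48 h was 0.50 ± 0.14 (adjusted p = 0.00595), from levels of 4167 and 3312 TPM, and the call failed without Pre replicate 2 (adjusted p = 0.172) or BLSE + IWR1 48 h replicate 1 (adjusted p = 0.133).

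KRT72 was at 6.07 and 7.16 TPM in Pre, at 55.0 and 48.1 TPM at 48 h (2.79 ± 0.39, adjusted p = 7.24e-07), and at 9.17 and 4.89 TPM at 96 h. At 96 h, KRT72 in BLSE + IWR1 was thus not separated from Pre (log2 difference 0.03), whereas the tdTomato-positive cells of SOX17 + BLSE held 94.3 and 109 TPM; no test was made between these lines, which also differed in medium and pre-treatment. KRT78 was at 1.96 and 1.95 TPM at 48 h and at 0.19 and 0.00 TPM in Pre. At 96 h KRT10 was lower (-1.31 ± 0.24, adjusted p = 2.61e-05), and KRT17 was higher at 3.82 and 2.84 TPM (1.82 ± 0.40, adjusted p = 2.85e-04). Of the 8 members at the filter in 10 or more libraries, 4 passed at 48 h, all higher. Of all genes, 19.2% passed in either direction and 9.98% as higher. At 96 h, 5 of the 8 passed, against 40.1% of all genes. The amnion-like list summed to between 82.2 and 134 TPM in Pre, 1563 and 1585 TPM at 48 h, and 170 and 294 TPM at 96 h, with GABRP listed at 0 in Pre. The fibroblast, feeder and gonadal somatic list summed to between 2498 and 4747 TPM in Pre, 110 and 132 TPM at 48 h and 105 and 140 TPM at 96 h, with none of its genes at 0 in both libraries. The part of either list was not tested. When the 48 h change in BLSE + IWR1 was set against that in BLSE, KRT8 was the 1 member called in limma (0.75 ± 0.20, adjusted p = 0.00711). Of all genes, 12.2% were called. KRT8 did not pass without any 1 of 6 of the 8 libraries. Of the 8 members at the filter in 10 or more libraries, 5 had an unadjusted p under 0.05, so members not called may differ too.

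BMS493 added to BLSE + IWR1 was followed by few keratin differences. At 48 h, KRT79 was at 1.42 and 1.53 TPM with BMS493 and at 0.29 and 0.18 TPM without, and KRT74 at 2.39 and 0.99 TPM against 0.56 and 0.28 TPM. Both were at the filter in few libraries, so no test is given for them. Of the 8 members at the filter in 10 or more libraries, 0 passed in limma, where 4.83% of all genes were called. Of these 8, 4 had an unadjusted p under 0.05. KRT19, at 2389 and 3032 TPM with BMS493 and 1886 and 1369.7 TPM without, had a log2 difference of 0.74 ± 0.20 with an adjusted p of 0.0121. At 96 h, 0 of the same 8 members were called in limma (0.732% of all genes), and 2 of the 8 had an unadjusted p under 0.05. The 95% interval of the difference at 96 h ran from 0.12 to 0.69 for KRT18 and from 0.15 to 0.96 for KRT19. KRT72 was at 69.4 and 77.7 TPM at 48 h and 7.74 and 4.71 TPM at 96 h with BMS493, with log2 differences of 0.51 and -0.13 from the cells without it.

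From 96 h to day 6, KRT72 was the 1 member called, where 2.75% of all genes were called. It was at 1.16 and 1.1 TPM at day 6 (-1.86 ± 0.39, adjusted p = 0.00222), a call that failed without BLSE + IWR1 96 h replicate 1 (adjusted p = 0.062) or either day-6 library. KRT8 stood at 351 TPM in both libraries, with a log2 difference of -0.54 and an adjusted p of 0.0193.

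In the xrOvaries KRT18 and KRT19 went to lower levels than KRT8. KRT19 was at 115 and 135 TPM at day 6, at 15.5 and 14.7 TPM at day 20, at 3.49 and 6.84 TPM at day 40 and at 0.78 and 1.46 TPM at day 70. The libraries of neighbouring ages did not overlap. The log2 differences were -2.97, -1.44 and -1.50 from each age to the next; KRT19 was taken into the selection for this loss, so they are given with no test, and leaving out either day-40 library moved the second to between -1.04 and -1.84 and the third to between -1.10 and -1.91. KRT18 was at 499 and 466 TPM at day 6, 243 and 251 TPM at day 20, 76.6 and 78.1 TPM at day 40 and 61.0 and 61.5 TPM at day 70. Its differences were -0.96 ± 0.14 at day 20 (adjusted p = 1.30e-06) and -1.66 ± 0.14 at day 40 (adjusted p = 1.08e-10), and the next step to day 70 was -0.33 without a call. KRT8 was at 246 and 201 TPM at day 20, 187 and 184 TPM at day 40 and 127 and 154 TPM at day 70. Its fall from day 6 to day 20 was -0.66 ± 0.14 (adjusted p = 5.45e-04), not kept without day-20 replicate 2 (-0.51, adjusted p = 0.0325), and its later differences of -0.26 and -0.41 did not pass.

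Day-20 replicate 2 stood apart, with 10146 genes above 0 TPM against 11441 in the other of day 20 and 11625 or more in the rest, while the difference of KRT18 was -0.99 without it (adjusted p = 5.63e-05) and that of KRT19 was -2.93.

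Without KRT19 and the members at the filter in few libraries, the members called in limma were 2 of 7 at day 20, 1 at day 40 and 0 at day 70. The shares of all genes called were 20.4%, 4.6% and 2.73%. At day 70, 2 of the 7 had an unadjusted p under 0.05. KRT72 was listed at 0 in both libraries of day 20 and did not exceed 0.83 TPM at days 40 and 70, and KRT10 stayed at between 3.82 and 10.5 TPM. KRT16, KRT6A, KRT78 and KRT79 were listed at 0 in all 6 xrOvary libraries. The amnion-like list summed to between 17.3 and 25.8 TPM in xrOvaries against 204 and 301 TPM at day 6, and the fibroblast, feeder and gonadal somatic list to between 21.1 and 34.0 TPM against 84.8 and 104 TPM. GABRP and VTCN1 were listed at 0 in xrOvaries of each age, LUM and NR2F2 as well. The part of either list in the decreases was not tested.

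The ratio of KRT18 to KRT8 within a library, which no scaling between libraries can alter, moved with the stage. It was 1.78 and 1.62 in DK20FA cjESCs, 1.91 and 1.73 in PESFA cjESCs and 2.0 and 1.92 in Pre. In BLSE + IWR1 it was 1.65 and 1.51 at 48 h, 1.14 and 1.03 at 96 h and 1.42 and 1.33 at day 6. It was 0.99 and 1.25 in xrOvaries of day 20, 0.41 and 0.42 at day 40 and 0.48 and 0.40 at day 70. KRT8 thus exceeded KRT18 in all 4 libraries of days 40 and 70 and in 1 of day 20, and in no other library. The ratio of type I to type II TPM over all members, KRT7 not counted, went from between 1.72 and 1.77 at day 6 to between 0.45 and 0.56 at days 40 and 70. The SOX17 + BLSE cells at 96 h, sorted for the same reporter, kept a KRT18 to KRT8 ratio of 1.51 and 1.64. The ratio of KRT19 to KRT18 was highest in BLSE + IWR1 + BMS493 at 48 h, at 0.92 and 0.94, against 0.45 and 0.41 without BMS493 and 0.01 and 0.02 at day 70. No test was made of these ratios. KRT8 and KRT18 have many processed pseudogenes in primate genomes, and how reads shared with them were assigned is uncertain.

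**Figure D4:**
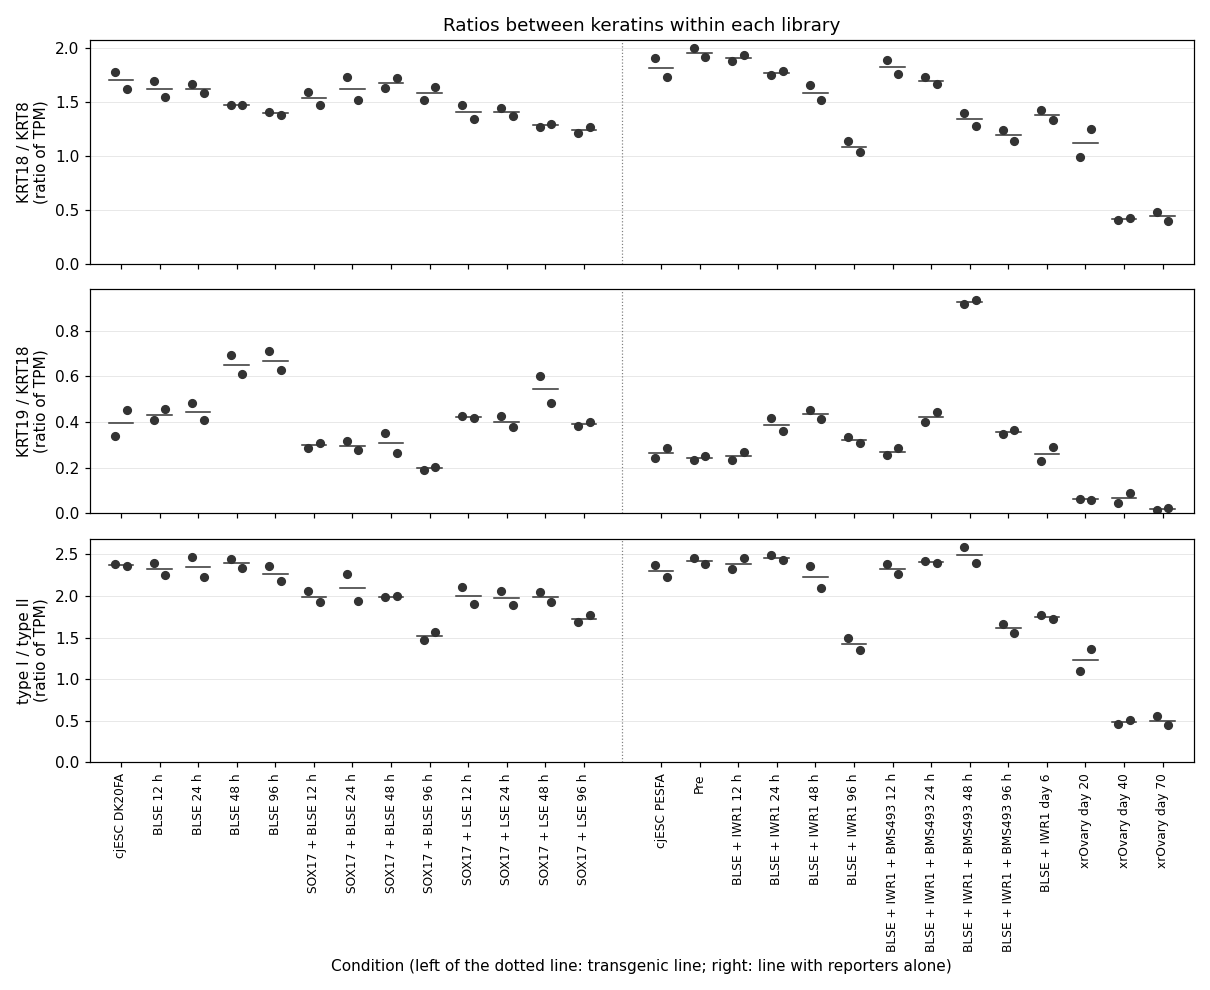
Ratios of TPM within each library for KRT18 to KRT8 (top), KRT19 to KRT18 (middle) and all type I to all type II members (bottom) in the 2 libraries of 27 conditions, with a short line at each mean. The top and bottom ratios fall below 0.6 in xrOvaries of days 40 and 70, and the middle ratio peaks in BLSE + IWR1 + BMS493 at 48 h at 0.92 and 0.94.

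The remaining low members had few features in common. KRT15, a basal keratin, was highest in BLSE at 48 h (6.25 and 4.88 TPM), was lower with SOX17 at 96 h, and was listed at 0 in all 4 libraries of xrOvaries of days 20 and 40. KRT10 was present in all 54 libraries, at between 3.82 and 29.2 TPM. KRT6A was highest in SOX17 + LSE at 12 h, where its 2 libraries differed widely (0.86 and 3.64 TPM), and was called in no comparison. KRT74 was highest in BLSE at 48 h (2.43 and 2.18 TPM). Members at 1 TPM or more numbered between 4 and 12 per library, with the most in a SOX17 + BLSE library of 96 h.

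KRT7, a type II keratin of simple epithelia and of amnion and trophoblast, is listed under a locus number (LOC100394518) and so lies outside the selection. It was at 211 and 139 TPM in DK20FA cjESCs and 225 and 172 TPM in PESFA cjESCs, was highest in BLSE at 96 h (235 and 349 TPM), and exceeded KRT72 in both libraries of every condition but SOX17 + BLSE at 48 h and at 96 h. KRT7 was lower by 1.5 on the log2 scale with SOX17 at 96 h (adjusted p = 1.26e-05), at 96.5 and 105 TPM. It was lower by 2.14 in BLSE + IWR1 at 96 h than in Pre (adjusted p = 2.72e-08), and it held 78.8 and 74.0 TPM in xrOvaries at day 20, 48.6 and 63.4 TPM at day 40 and 22.2 and 16.6 TPM at day 70, the last step being called (adjusted p = 2.96e-04). At day 40, KRT7 and KRT8 were the most abundant type II keratins.

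Keratin filaments are anchored at desmosomes by desmoplakin (DSP), plakoglobin (JUP), plakophilins and related linkers. Of 18 such genes, 12 were tested. In SOX17 + BLSE against BLSE at 96 h, 6 rose and 1 fell, where 29.3% of all genes rose and 16.1% fell, with a median log2 difference of 0.43 beside 0.24 for all genes. DSP was at 738 and 632 TPM with SOX17 and at 128 and 131 TPM in BLSE, and DSG3, a desmosomal cadherin, rose most, by 3.29 (adjusted p = 3.74e-11). In BLSE at 96 h against cjESCs, 2 rose and 7 fell, with 12.4% of all genes rising and 17.1% falling, and with a median of -0.96 beside -0.08. In BLSE + IWR1 at 96 h against Pre, 4 rose and 4 fell (22.7% and 17.4% of all genes), among them DSP with 1.46 (adjusted p = 6.31e-06) and EVPL with -1.15 (adjusted p = 4.97e-05). DSP stayed at between 408 and 532 TPM in xrOvaries, and JUP was at no more than 4.94 TPM in any library.

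Vimentin (VIM), the main intermediate filament protein of mesenchymal cells, was at 1924 and 1763 TPM in BLSE at 96 h and at 68.4 and 59.7 TPM in SOX17 + BLSE, where it fell with KRT8, KRT18 and KRT19 (-4.83, adjusted p = 8.92e-22). Of 13 intermediate filament genes outside the keratins tested there, VIM among them, 4 rose and 8 fell, with a median of -0.82 beside 0.24. Of all genes, 29.3% rose and 16.1% fell. The neurofilament gene NEFH rose by 4.35 (adjusted p = 9.87e-17). In xrOvaries at day 20 against day 6, 5 rose and 2 fell, where 6.56% of all genes rose and 13.8% fell. There VIM rose by 1.82 (adjusted p = 1.19e-09), from 194 and 184 TPM to 638 and 707 TPM, in the same step in which KRT8 and KRT18 fell, and it was at 123 and 151 TPM at day 70.

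Of 13 epithelial transcription and splicing factors tested, 7 rose and 2 fell with BMP4 at 48 h in SOX17-expressing cells, where 4.61% of all genes rose and 3.4% fell, with a median of 0.91 beside 0.0012 for all genes. TFAP2A was at 44.2 and 43.2 TPM with BMP4 and at 3.71 and 5.0 TPM without (3.07, adjusted p = 4.83e-10), GATA3 at 223 and 211 TPM against 52.1 and 37.6 TPM (2.27, adjusted p = 1.67e-07), and GRHL1 rose by 2.45 (adjusted p = 1.24e-08). With SOX17 in BLSE at 96 h, 9 rose and 0 fell, where 29.3% of all genes rose and 16.1% fell, led by ELF3 (3.59, adjusted p = 7.95e-18) and ESRP1 (3.22, adjusted p = 1.71e-13). From day 6 to xrOvaries of day 20, 1 rose and 4 fell (6.56% and 13.8% of all genes), and GATA3 went from 66.6 and 102 TPM to 0.00 and 0.75 TPM (-5.98, adjusted p = 7.18e-18). GRHL2 did not exceed 1.37 TPM in any library and was not tested.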

How the data were processed

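Poly(A) RNA from cells of 27 conditions, 2 libraries each, was sequenced from directional libraries. The authors aligned the reads with STAR to the marmoset genome, estimated abundances with RSEM and deposited TPM with 2 decimals for 14812 of the genes found in marmosets and humans alike, and the sums of these TPM per library lay between 790300 and 839203. TPM keep no read totals, so depth is unknown and no interval for counting error is given. The members and gene lists were chosen with earlier results of these data known.

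From the TPM, log2(TPM + 1) was computed, which understates changes of low genes, and 11197 genes reaching 1.5 in 1 or more libraries were retained. Condition means were fitted in limma 3.58.1 (R 4.3.3) over all 54 libraries (27 residual degrees of freedom, intensity trend), and 21 comparisons and 3 differences between comparisons were tested, two-sided, adjusting p by Benjamini-Hochberg across the retained genes. A call was an adjusted p under 0.01 at any fold. On simulated data for SOX17 + BLSE against SOX17 + LSE at 48 h, 199 of 200 genes changed 8-fold were recovered and 2 of 10997 unchanged genes were called, of 11197. The changed genes were drawn from those with a mean log2 value above 1.5 and given normal noise. Recovery of lower genes or smaller changes was not simulated. The split into members at the filter in 10 or more and in fewer libraries was chosen after the values were seen. Every member that passed the filter was named with its levels, and the others by their highest TPM. From the gene lists, counts were given, and values for DSP, JUP, VIM, TFAP2A, GATA3, GRHL2 and for called members with the largest folds. Gene names were matched by gene ID to the RefSeq table of the calJac240_pri assembly. Figures were drawn with matplotlib 3.10.9.

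Alternatives were a pseudocount of 0.1, no filter (14394 genes), only the libraries compared, a replicate block, median-ratio scaling (8722 genes), quantile normalization, no trend, a call that also needs a 4-fold difference and a mean log2 value above 1.5, and each library left out.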

Additional observations from a re-analysis of the deposited data

Results flagged for a closer look

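The BMP4 difference of KRT80, a type II keratin of many epithelia, changed between 12 and 48 h of SOX17 expression by 3.56 on the log2(TPM + 1) scale (adjusted p = 2.00e-04), tested as the difference between the comparisons at the 2 times. KRT80 was at 19.3 and 17.7 TPM with BMP4 and at 0.58 and 1.53 TPM without it at 48 h. With a pseudocount of 0.1 the difference was 4.49 with an adjusted p of 0.0326.

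The 48 h change of KRT8 was larger in BLSE + IWR1, counted from Pre, than in BLSE, counted from DK20FA cjESCs, by 0.75 on the same scale (adjusted p = 0.00711), tested in the same way. KRT8 went from 1476 and 1216 TPM to 2518 and 2188 TPM in BLSE + IWR1 and from 2763 and 2939.7 TPM to 2894 and 3048 TPM in BLSE. The medium, the line and the pre-treatment with IM12 and activin A differ between the arms and cannot be told apart from IWR1. With median-ratio scaling the difference was 0.66 with an adjusted p of 0.0388.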

How the results depend on the processing

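Of 50 tested calls of single keratins (members at the filter in 10 or more libraries), 31 were kept under every alternative other than the fit of only the libraries compared, 13 were kept under that fit too, 17 were lost without at least 1 library, and 0 changed sign. The 13 include KRT8, KRT18 and KRT19 lower in tdTomato-positive cells at 96 h than in BLSE, cjESCs or Pre. With 2 libraries per condition, a fit of only the libraries compared has few degrees of freedom, and 37 of the 50 calls were lost in it. Counts over all 13 members follow, here and with 1 library left out, with those included whose difference the filter or the selection built in. In the fit of all libraries, the 1 call at day 70 was KRT19 and the 1 with BMP4 at 24 h was KRT72. Without these named members, 0 of 12 were called in either comparison, and 1 in the change of the BMP4 difference. The stability of these counts is therefore no test. First come those of the fit of only the libraries compared. Its counts of called members were 4 with SOX17 at 96 h (9 in the fit of all libraries), 2 in BLSE at 96 h (6), 1 in SOX17 + BLSE at 48 h against cjESCs (7), with BMP4 at 48 h (4) and in the change of the BMP4 difference (2), and 0 for the media (5), BLSE at 48 h (4), SOX17 at 12 h (1) and 48 h (4), BMP4 at 24 h (1) and 96 h (6), BLSE + IWR1 at 48 h (5), BMS493 at 48 h (2), day 6 (1), xrOvaries at day 20 (3), day 40 (2) and day 70 (1), and the 48 h change in BLSE + IWR1 against BLSE (1). A call that also needs a 4-fold difference and a mean log2 value above 1.5 gave 5 in SOX17 + BLSE at 96 h against cjESCs (9), 4 with SOX17 at 96 h, 3 in BLSE at 96 h, 2 in SOX17 + BLSE at 48 h and with BMP4 at 48 and 96 h, 1 in BLSE at 48 h, in BLSE + IWR1 at 48 and 96 h (6) and in xrOvaries at day 20, and 0 for the media, SOX17 at 12 and 48 h, BMS493 at 48 h, day 6, days 40 and 70 and the change in BLSE + IWR1 against BLSE. A pseudocount of 0.1 gave 2 in BLSE at 48 h, with SOX17 at 48 h and with BMP4 at 24 h, 0 for BMS493 at 48 h, 5 in xrOvaries at day 20 and 1 for the change of the BMP4 difference. Without the filter, 2 were called with SOX17 at 12 h and at day 70, 5 at day 20, 1 for the change of the SOX17 difference (0) and 0 for that of BLSE + IWR1 against BLSE, which was also 0 with median-ratio scaling, quantile normalization and no trend. The cause of these changes was not tested.

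With 1 library left out, the members called ranged from 3 to 4 for the media, 1 to 3 in BLSE at 48 h, 6 to 6 at 96 h, 3 to 3 in SOX17 + BLSE at 48 h against cjESCs and 8 to 10 at 96 h, 0 to 1, 2 to 3 and 7 to 9 with SOX17 at 12, 48 and 96 h, 0 to 1, 2 to 3 and 4 to 6 with BMP4 at 24, 48 and 96 h, 4 to 5 and 5 to 6 in BLSE + IWR1 at 48 and 96 h, 0 to 1 for BMS493 at 48 h, 0 to 1 at day 6, 3 to 3, 2 to 3 and 1 to 1 in xrOvaries at days 20, 40 and 70, 2 to 2 for the change of the BMP4 difference and 0 to 2 for that in BLSE + IWR1 against BLSE. The lower counts came, for the media, without DK20FA replicate 1 or either PESFA library; in BLSE at 48 h, without either cjESC library or BLSE replicate 1; in SOX17 + BLSE at 48 h and for BMS493 at 48 h, without any 1 of the 4 libraries; and with BMP4 at 48 h, without SOX17 + BLSE replicate 1 or either SOX17 + LSE library. The replicate numbers did not pair the libraries (correlation of deviations between -0.271 and 0.289 over 351 pairs of conditions, 41 above 0.1), and a replicate block moved no count by over 1.5 times: 9 members were called with SOX17 at 96 h and 4 with BMP4 at 48 h, as without it. Median-ratio scaling moved the median log2 difference of all genes by -0.28 with SOX17 at 96 h, -0.204 in BLSE + IWR1 at 96 h and -0.172 in SOX17 + BLSE at 96 h, and by no more than 0.114 in either direction elsewhere. Depth is unknown, so values under 1 TPM and genes listed at 0 cannot be bounded.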
